A study of Arabidopsis thaliana with 12 samples.

Results

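Phosphoribulokinase (PRK, AT1G32060), geranylgeranyl reductase (CHLP, AT1G74470) and Mg-protoporphyrin IX methyltransferase (CHLM, AT4G25080) are 3 nuclear-encoded chloroplast enzymes of Arabidopsis thaliana. They were chosen by gene identity, as enzymes of the Calvin cycle and of chlorophyll synthesis with a probe of their own on the array, out of 691 genes with such a probe and 3439 probes in all. Each gene was read by 1 probe, and no probe shared with other genes named any of them. Total RNA came from wild-type plants of ecotype Columbia 0, with 6 light-adapted samples and 6 samples of plants exposed to darkness for 1 h. The labels name no tissue, age or growth condition, and do not say that the 6 samples of a group came from separate plants. The p-values below thus rest on a spread between samples that could be purely technical.

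PRK phosphorylates ribulose 5-phosphate to ribulose 1,5-bisphosphate, the acceptor of carbon dioxide in the Calvin cycle. In the light its enzyme is activated by reduced thioredoxin, and in the dark it is held inactive in a complex with CP12 and glyceraldehyde 3-phosphate dehydrogenase. CHLM methylates Mg-protoporphyrin IX, an early step of the branch of tetrapyrrole synthesis that leads to chlorophyll. CHLP reduces geranylgeranyl groups to phytyl groups, which supply the tail of chlorophyll and the side chain of tocopherol. Angiosperms do not complete chlorophyll synthesis in the dark, because the reduction of protochlorophyllide needs light. The comparison asked whether transcript levels of these enzymes in light-adapted plants differ from those of plants kept dark for 1 h.

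The deposited intensities run from 0 to 100 and are linear. They were quantile normalised, and neighbouring sample numbers (1 and 2, 3 and 4, 5 and 6) were averaged because they resembled each other most, so that each mean ± SD below rests on 3 averaged values per group. Each sample was given a background limit, the value that 95% of its probes stay under when the neighbouring sample reads 0. This limit was 0.0850 to 0.194 in light-adapted samples 3 to 6 and 0.0289 to 0.0501 in the other 8 samples, so a dim probe was harder to see in those light-adapted samples. The median deposited intensity was 0.0710 to 0.103 in the light-adapted samples and 0.0644 to 0.106 in the dark ones. Changes are differences of mean log2 values, dark minus light, tested with limma over all 3439 probes with Benjamini-Hochberg adjustment at 0.05.

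None of the 3 genes passed this test, against 267 of 3439 probes, or 7.76%. At an unadjusted p under 0.05 PRK alone of the 3 stood out, against 24.1% of all probes. Under median scaling PRK did not (unadjusted p in limma 0.0619). PRK was lower in all 6 dark samples than in all 6 light-adapted ones, as were 6.46% of all probes, though neighbouring sample numbers resembled each other. CHLP was slightly higher in the dark with overlapping groups. CHLM had no common direction, since its dark samples 5 and 6 stood far below its other dark samples. With a replicate block for the pair number, 0 of 3439 probes passed in limma, 798 of them at an unadjusted p under 0.05.

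PRK was well measured in all 12 samples. Its normalised intensity in the light-adapted samples had a lowest value of 4.01, a median of 4.55 and a highest value of 5.58. After 1 h of darkness the lowest value was 1.86, the median 2.71 and the highest 2.998. The groups did not overlap, and every sample was at least 24.7 times its own background limit. On the deposited scale the gap between the groups was narrow, with 3.69 to 5.93 in the light and 1.61 to 3.63 in the dark. Of all 3439 probes, 15.2% likewise had 6 samples of one group that did not overlap with those of the other, and 6.46% did so with the lower level in the dark. Among the 278 probes with a mean above 1, the latter share was 20.5%.

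**Figure D1:**
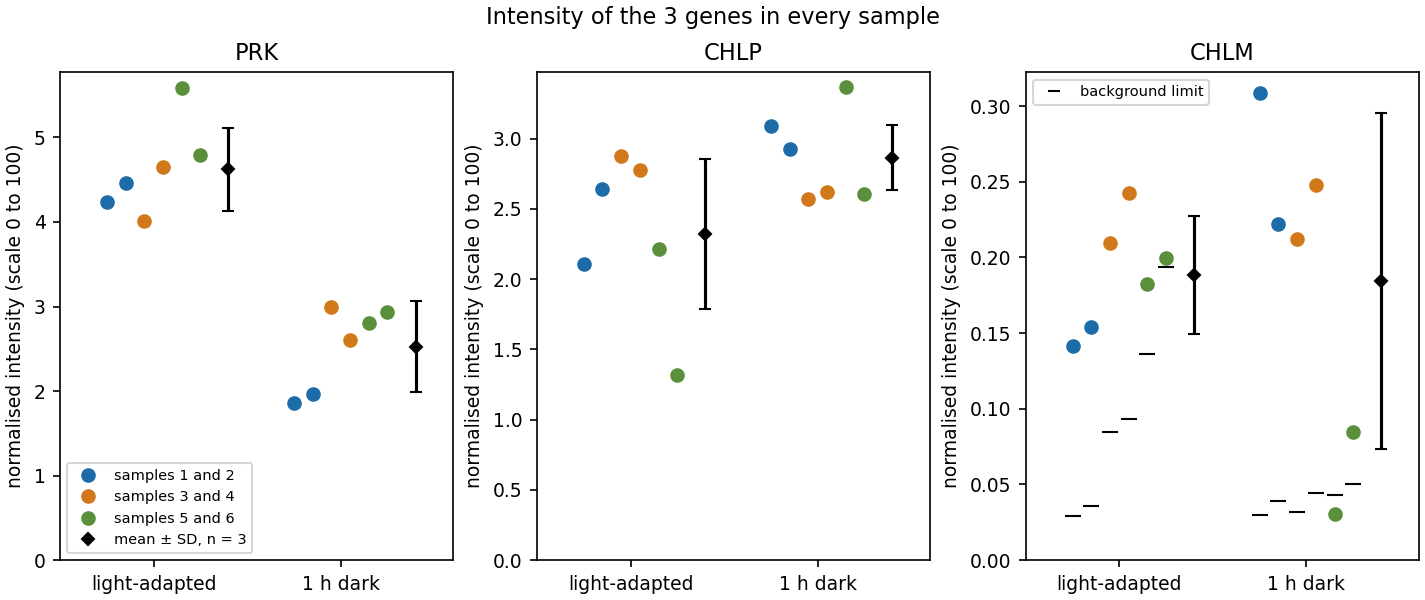
Normalised intensity (scale 0 to 100) of PRK, CHLP and CHLM in the 6 light-adapted and 6 dark samples. Points are samples coloured by pair of neighbouring numbers, diamonds with bars are the mean ± SD of 3 averaged values, and short black lines in the CHLM panel are each sample's background limit. PRK runs from 4.01 to 5.58 in the light and from 1.86 to 2.998 in the dark, whereas CHLP and CHLM overlap and the CHLM dark samples 5 and 6 are at 0.0308 and 0.0846.

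Light-adapted samples had a mean PRK intensity of 4.62 ± 0.491 (SD, n = 3), and dark samples one of 2.53 ± 0.535. The log2 change was -0.89 (SE 0.20, 95% interval -1.41 to -0.37), a level 1.85 times as high in the light as in the dark (interval 1.29 to 2.65, not adjusted for the number of probes). Whether fewer green cells or less RNA per cell went with the lower level cannot be told apart in whole samples. The unadjusted p was 0.00749 and ranked 381 of 3439, and the adjusted p in limma was 0.0673, which does not pass. With the replicate block it was 0.119. Both p-values also depended on the scaling of the arrays. Unadjusted and adjusted p in limma were 0.0351 and 0.210 without normalization, and 0.0619 and 0.240 with median scaling. They were 0.00838 and 0.0745 with cyclic loess. A two-sided exact permutation test of the 3 averaged values against 3 gave p = 0.10, the smallest this design allows. A change as low as that of PRK or lower was seen for 521 of the 3439 probes (15.1%), and for 49 of the 278 probes with a mean above 1 (17.6%).

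The 3 pairs of samples differed in the size of the PRK difference but not in its sign. The averaged log2 change was -1.19 for numbers 1 and 2, -0.63 for numbers 3 and 4 and -0.85 for numbers 5 and 6. Within a pair, the 2 samples of one group differed by at most 0.22 on the log2 scale. Between pairs the averages spread over 0.26 in the light and 0.59 in the dark. Dark samples 1 and 2, with 1.86 and 1.96, were the lowest of all 12, and without them the log2 change was -0.70 (adjusted p = 0.0999). The call depended on how samples were counted: 6 samples against 6 gave an adjusted p of 0.000835, a fit that treats the near-duplicate neighbours as independent and in which 10.8% of all probes passed with a lower level in the dark. Leaving out probes with a mean of 0.2 or less, which reduces the number of tests to 1016, gave an adjusted p of 0.0334, with 12.7% of these probes passing with a lower level in the dark.

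**Figure D2:**
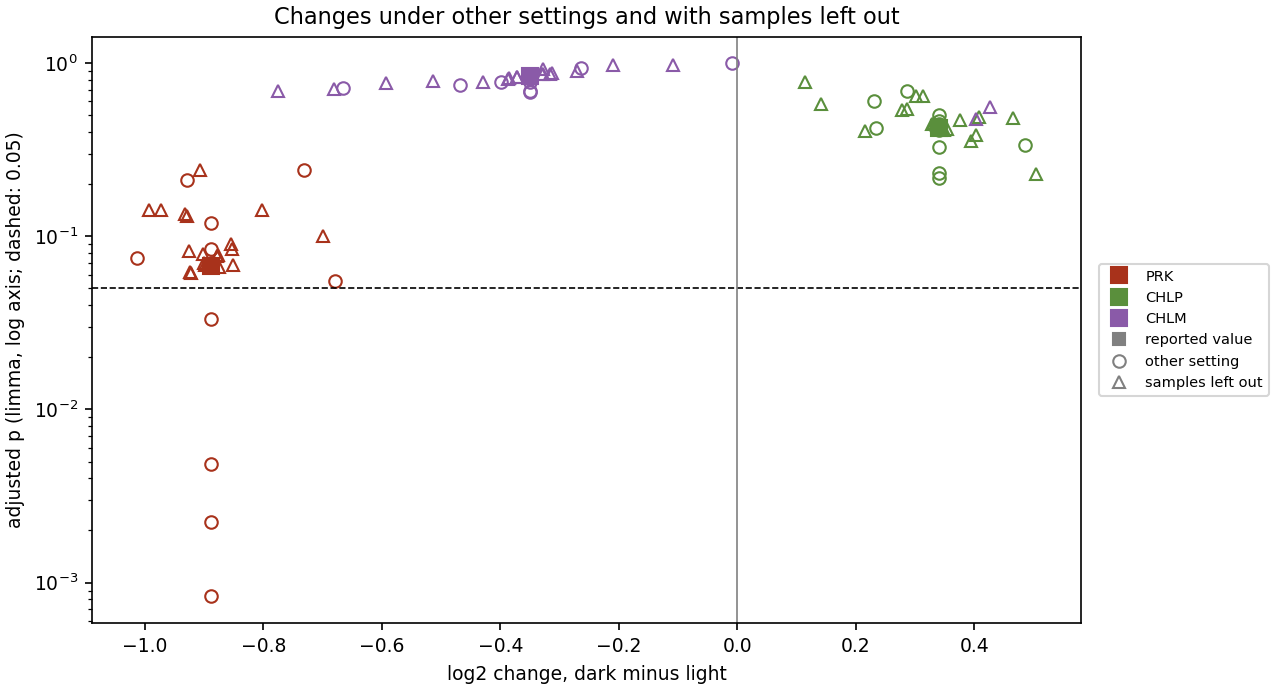
Log2 change (dark minus light) of each gene against its adjusted p in limma on a log axis, for the reported fit (squares), other settings (circles) and fits with samples left out (triangles). The PRK values lie between -1.01 and -0.68 and cross the dashed threshold of 0.05 only in some settings, down to 0.000835, whereas CHLM lies on both sides of 0.

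CHLP, the phytyl-forming reductase, was also bright and above the background limit in all 12 samples. Its normalised intensity had a lowest value of 1.32, a median of 2.43 and a highest value of 2.88 in the light-adapted samples. In the dark the lowest value was 2.57, the median 2.78 and the highest 3.37. The groups overlapped, and the spread lay mostly on the light-adapted side, where samples 6 and 1 were lowest with 1.32 and 2.11. Light-adapted samples had a mean of 2.32 ± 0.532 (SD, n = 3) and dark samples one of 2.86 ± 0.232. The log2 change of 0.34 (SE 0.21, 95% interval -0.21 to 0.89) did not pass in limma (adjusted p = 0.420). The interval runs from a level 0.863 times that in the light to one 1.86 times as high, so a difference within this range is not excluded.

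The direction of CHLP was not shared by the pairs. The log2 change was 0.35 for numbers 1 and 2, -0.12 for numbers 3 and 4 and 0.79 for numbers 5 and 6. The last pair rests on light-adapted samples 5 and 6, with intensities of 2.22 and 1.32, and these samples had the highest background limits, 0.136 and 0.194. Without light-adapted samples 5 and 6 the log2 change was 0.14 (adjusted p = 0.577). Whether the higher background in these samples has a part in this was not tested.

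CHLM, the methyltransferase, was dim. In the light-adapted samples its normalised intensity had a lowest value of 0.141, a median of 0.191 and a highest value of 0.242. In the dark the lowest value was 0.0308, the median 0.217 and the highest 0.308, so the dark samples spanned the whole range of the light ones on both sides. All light-adapted samples were above their background limit, but samples 5 and 6 only by factors of 1.34 and 1.03. In the dark 5 of 6 samples were above it, and sample 5 was not, at 0.713 times the limit.

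Mean CHLM intensity was 0.188 ± 0.0392 (SD, n = 3) for light-adapted and 0.184 ± 0.111 for dark samples. The log2 change was -0.35 (SE 0.72, adjusted p = 0.836), and its 95% interval of -2.22 to 1.52 excludes neither a large drop nor a large rise. Over the pairs the log2 change was 0.83 for numbers 1 and 2, 0.03 for numbers 3 and 4 and -1.90 for numbers 5 and 6. Dark samples 5 and 6, with 0.0308 and 0.0846, stood below dark samples 1 to 4, which had 0.212 to 0.308. Without these 2 dark samples the log2 change became 0.40 (adjusted p = 0.475), so its sign rests on them.

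A ratio of 2 probes within one sample does not depend on a scale factor of that array, and was used to ask whether the genes changed unequally. Quantile normalisation is not a scale factor, so the ratios below do depend on it. Without normalization the log2 ratio changed by -1.22 for PRK over CHLP, -0.26 for PRK over CHLM and 0.95 for CHLP over CHLM. The log2 ratio of PRK to CHLP was 0.48 to 1.86 in the 6 light-adapted samples and -0.74 to 0.22 in the 6 dark samples, without overlap. The mean ratio went from 1.03 ± 0.51 (SD, n = 3) under light to -0.20 ± 0.40 under darkness, which is a change of -1.23. The two-sided exact permutation p was 0.10, the smallest possible for 3 against 3, and 0.30 after adjustment over the 3 ratios. Over 6 samples against 6, which counts neighbouring samples as independent, the exact permutation p was 0.00216, adjusted 0.00649. When equal sample numbers were paired, the exact sign-flip permutation gave an adjusted p of 0.0938 over 6 numbers and 0.75 over the 3 averaged pairs, so the ratio did not pass. The same lack of overlap, with the lower ratio in the dark, was found for 53.1% of the ratios of PRK to the other 277 probes with a mean above 1, so CHLP is not particular in this.

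The ratios with CHLM were dominated by dark samples 5 and 6. The log2 ratio of PRK to CHLM was 4.26 to 4.93 in the light and 2.59 to 6.51 in the dark, with a change of -0.54 (two-sided exact permutation p = 0.60). The log2 ratio of CHLP to CHLM was 2.72 to 4.1 in the light and 3.32 to 6.77 in the dark, with a change of 0.69 (two-sided exact permutation p = 0.70). In both ratios dark samples 5 and 6 gave the highest values of all 12. The highest, 6.51 and 6.77, came from dark sample 5, where CHLM was below its background limit, and with CHLM at that limit they would be 6.02 and 6.28. They are not exact ratios, and both changes and their p-values depend on dark samples 5 and 6. Without these 2 samples the change was -1.40 for PRK over CHLM and -0.091 for CHLP over CHLM.

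**Figure D3:**
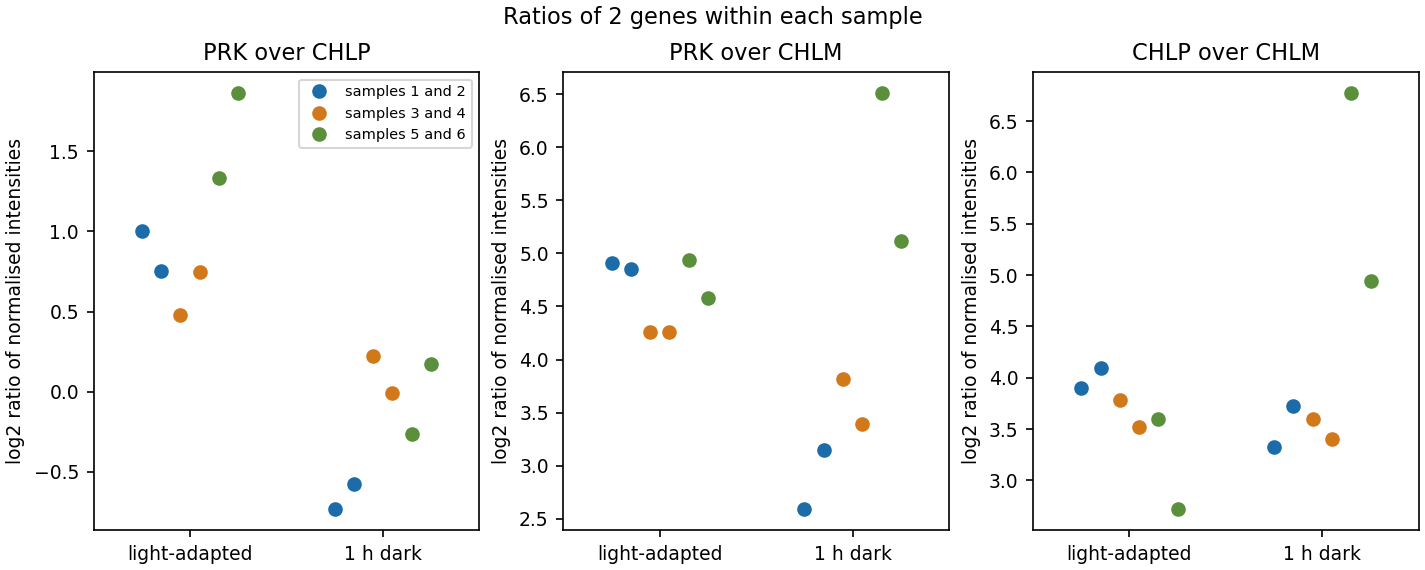
Log2 ratio of normalised intensities of 2 genes within each sample, for the 6 light-adapted and 6 dark samples, coloured by pair of neighbouring numbers. The ratio of PRK to CHLP is 0.48 to 1.86 in the light and -0.74 to 0.22 in the dark, whereas dark samples 5 and 6 stand above all others in both ratios with CHLM.

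Few other genes of these pathways had a probe of their own, and none of them passed the test in limma (only HEMA3 at an unadjusted p under 0.05, 0.00795). Of 24 genes of the Calvin cycle 2 were measured, PRK and SBPASE, the phosphatase that acts on sedoheptulose 1,7-bisphosphate. SBPASE was listed at 0 in 6 of 6 light-adapted and 4 of 6 dark samples and was above the background limit in none, so it gives no comparison. Of 41 genes of tetrapyrrole synthesis 3 were measured, CHLM, CHLP and HEMA3, which encodes a glutamyl-tRNA reductase, the enzyme of the first committed step. A further 6 tetrapyrrole genes and 1 Calvin cycle gene were found only on probes that carry several genes, and are not named here. Of 13 genes of plastid isoprenoid and tocopherol synthesis and 6 of chlorophyll breakdown, 0 were measured.

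After normalisation HEMA3 had a higher level in every dark sample than in every light-adapted one, where 15.2% of all probes had such groups without overlap in either direction. On the deposited scale its groups overlapped, with 0.178 to 0.499 in the light and 0.405 to 0.728 in the dark, and without normalization its log2 change was 0.83 (adjusted p in limma 0.280). Its normalised intensity had a lowest value of 0.192, a median of 0.261 and a highest value of 0.377 in the light, and 0.465, 0.557 and 0.864 in the dark. Of the light-adapted samples 5 of 6 exceeded the background limit, and of the dark ones 6 of 6. The means were 0.270 ± 0.0708 (SD, n = 3) and 0.594 ± 0.136, and the log2 change of 1.15 (SE 0.26, 95% interval 0.47 to 1.83) did not pass in limma (adjusted p = 0.0700, and 0.191 with the replicate block). As for PRK, the call was made with the filter on dim probes (adjusted p in limma 0.0235) and with 6 samples against 6 (0.00156). With the filter 190 of 1016 probes passed with a higher level in the dark. Of all 3439 probes, 442 did so with 6 samples against 6. The 3 measured genes of tetrapyrrole synthesis thus had log2 changes of -0.35, 0.34 and 1.15, with a median of 0.34. The median over all 3439 probes was 0, with quartiles of -0.54 and 0.54.

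Thioredoxins pass electrons from the photosystems to Calvin cycle and tetrapyrrole enzymes, and 2 of 9 genes of this plastid system were measured. FTRB, the catalytic subunit of ferredoxin-thioredoxin reductase, had 0.313 ± 0.0721 (SD, n = 3) in light-adapted and 0.399 ± 0.0787 in dark samples. Its log2 change was 0.39 and missed the threshold in limma (adjusted p = 0.411). NTRC, a thioredoxin reductase with its own thioredoxin domain, was above the background limit in 1 of 6 light-adapted samples, so its change was not determined. Of 7 genes known to be induced by darkness 1 was measured, ETFQO, an electron-transfer protein of amino acid breakdown, and its probe exceeded the limit in 0 of 6 light-adapted and 1 of 6 dark samples.

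**Figure D4:**
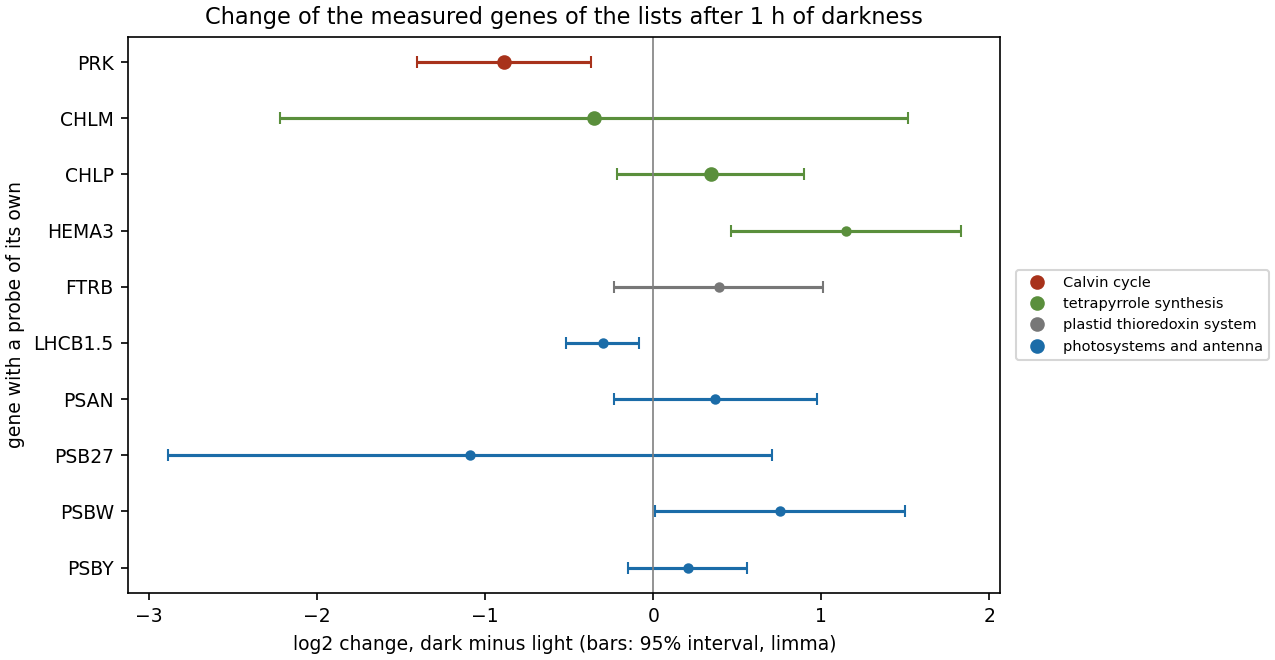
Log2 change (dark minus light) with its 95% interval from limma, for the measured genes of the 4 pathway lists that were above the background limit in at least 4 of 6 samples of each group. Colours mark the lists and larger points the 3 genes described first. The intervals of PRK, HEMA3, PSBW and LHCB1.5 leave out 0, but none of these 4 genes passed after adjustment over all probes, and the sign of LHCB1.5 flips without normalization and with median scaling.

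Photosystem and antenna genes give the setting of PRK among bright photosynthetic transcripts. Of 35 such genes 5 were measured, and all of them exceeded the background limit in all 12 samples, so transcripts of green tissue were present. None of 10 marker genes of root and phloem had a probe of its own, so other tissues could not be checked. The log2 changes were 0.37 for PSAN of photosystem I, 0.76 for PSBW, 0.20 for PSBY and -1.09 for PSB27 of photosystem II (adjusted p in limma 0.420, 0.20, 0.459 and 0.429). With median scaling PSAN had 0.72 and PSBW 1.37, and both passed in limma (adjusted p = 0.0434 and 0.0380). With this scaling 236 of 3439 probes passed, 127 of them higher in the dark. With the replicate block for the pair number PSAN and PSBW did not pass in limma (adjusted p = 0.475 and 0.290). LHCB1.5, an antenna protein of photosystem II, had -0.30 (adjusted p = 0.103), which became 0.14 without normalization and 0.34 with median scaling, so it has no settled direction.

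Relative to 4 of these 5 genes within the same sample, PRK was lower in every dark sample than in every light-adapted one, as for 53.1% of all ratios of PRK to bright probes. The difference in log2 ratio, dark minus light, was -0.59 against LHCB1.5, -1.26 against PSAN, -1.64 against PSBW and -1.09 against PSBY. Without normalization these differences were -1.07, -1.45, -2.10 and -1.13. Each had a two-sided exact permutation p of 0.10, the smallest possible with 3 averaged values against 3, and an adjusted p of 0.125 over the 5 ratios. The ratio to PSB27 differed by 0.20 (two-sided exact permutation p = 0.90) with overlapping groups, and PSB27 itself ranged from 0.480 to 6.40 among the light-adapted samples. These comparisons were chosen after the values were known, and they share the PRK values, so they are not independent of each other.

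The genes with the profile most like that of each enzyme were taken from 345 probes with a single gene that were above the floor in all 12 samples, by Pearson correlation on the log2 scale over the 12 samples. Since neighbouring samples are near-duplicates and the light and dark groups differ, the correlations are given as a description. Genes picked for likeness to an enzyme over these 12 samples tend to share its change between light and dark. Their limma results are thus a description as well, since the same samples served to pick them. For PRK the closest were AT3G59300 (r = 0.94), AT3G06570 (r = 0.91) and AT3G44570 (r = 0.91). Within the groups, after subtracting the group means, these correlations were 0.75, 0.38 and 0.50, so much of the likeness came from the difference between light and dark. AT3G06570 had 11.7 ± 0.760 (SD, n = 3) in light-adapted and 6.51 ± 0.430 in dark samples, and its log2 change of -0.84 (SE 0.09) passed in limma (adjusted p = 0.0145, but 0.102 with the replicate block). AT3G44570 had 0.421 ± 0.0569 and 0.171 ± 0.0331, a log2 change of -1.33 (adjusted p in limma 0.0277, but 0.0989 with the block). AT3G59300 had 0.249 ± 0.0438 and 0.0833 ± 0.0341, and its log2 change of -1.68 did not pass in limma (adjusted p = 0.0622, and 0.122 with the block). AT3G59300 did pass in limma without normalization, with median scaling and with cyclic loess (adjusted p = 0.0362, 0.0483 and 0.0436). AT3G06570 also missed the threshold without normalization, with median scaling, and without dark samples 1 and 2 or 5 and 6 (adjusted p = 0.174, 0.154, 0.0738 and 0.0606). AT3G44570 missed it without normalization (0.0752) and without any one pair of either group (adjusted p of 0.0520 to 0.108).

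For CHLP the closest were AT1G21660 (r = 0.86), AT5G49120 (r = 0.86) and AT2G39360 (r = 0.85), and within the groups the correlations were 0.81, 0.81 and 0.80. The probe of AT1G21660 exceeded its background limit in 1 of 6 light-adapted samples, so its change was not determined. The log2 changes of AT5G49120 and AT2G39360, 0.66 and 0.49, did not pass in limma (adjusted p = 0.462 and 0.282). For CHLM the closest were AT5G52810 (r = 0.82), AT3G09080 (r = 0.82) and AT1G25500 (r = 0.80), with correlations of 0.82, 0.85 and 0.80 within the groups. Their log2 changes of -0.51, -0.26 and -0.20 did not pass in limma either (adjusted p = 0.609, 0.539 and 0.859). For both enzymes of chlorophyll synthesis the likeness was thus about as high within the groups as over all samples. Without dark samples 5 and 6 the log2 changes of AT5G52810 and AT1G25500 turned positive, as for CHLM, while AT3G09080 stayed negative. Without light-adapted samples 5 and 6 the log2 change was 0.14 for CHLP, 0.20 for AT5G49120 and 0.35 for AT2G39360. How far the likeness rests on these samples was not tested. No gene was among the closest of more than 1 of the 3 enzymes.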

How the data were processed

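The deposited table holds 1-channel array intensities that run from 0 to 100, and the values do not show how this scale was set. The sources used here do not give the scanner, background correction or normalization. Sample titles gave the groups. Column medians differed by more than 2%. Arrays were therefore quantile normalised, low values were set to the 5th percentile of all positive values (0.0121) and log2 was taken. Neighbouring sample numbers were then averaged (linear correlations of 0.9945 to 0.9986 within pairs, 0.920 to 0.978 for other samples of one group). The test was limma 3.58.1 (lmFit and eBayes, R 4.3.3) over every probe, without a block, and was tried on simulated data with independent noise. Those data hold no pairing or near-duplicate samples, so they do not bear on how samples are counted. Same-numbered light and dark samples deviated together from their group means, with correlations across probes of 0.131 to 0.220, and of 0.120 to 0.208 for the averaged pairs. Every one was over 0.1, the limit used. Samples of unequal number were not compared in this way, so the correlations do not show whether the numbers pair the samples. The labels do not state a pairing. Blocked values are given where they bear on a call.

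A platform annotation table named the probes, and gene IDs were matched to RefSeq (TAIR10.1): 692 probes had 1 gene (690 matched), 870 several and 1877 were unnamed here. The probes come with no build, and neither coordinates nor sequences are given. Named genes were the 3 enzymes, the measured genes of 8 lists, and the 3 single-gene probes most correlated with each enzyme. The genes, lists, averaging and background limit were chosen with earlier results of these data known. The number of arrays limits the precision. Figures were drawn with matplotlib 3.10.9. Alternatives were other scalings, floors, a pseudocount of 1, a filter on dim probes, other ways to count replicates, and samples left out.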

Additional observations from a re-analysis of the deposited data

How the results depend on the processing

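PRK, CHLP and CHLM and the ratios between them gave 183 values under alternatives, of which 172 kept both direction and side of the threshold. The log2 change of PRK was negative in all 33 alternatives, from -1.01 with cyclic loess to -0.68 with log2(value + 1). It passed in 5 of them with other numbers of samples or probes, at -0.89 in each of the following: the filter on dim probes, 6 samples against 6, random blocks (adjusted p = 0.00223), a replicate block for each sample number (0.00481) and the exact permutation over 6 against 6 (adjusted p = 0.00649). The exact permutation p was adjusted over the 3 enzymes only, unlike the limma values. Before adjustment it is the smallest that 6 against 6 allows. Any probe whose groups do not overlap reaches it, as 15.2% of all probes did. The ratio of PRK to CHLP, -1.23, passed over 6 against 6 but not with a replicate block (exact permutation, adjusted p = 0.0938 per sample number, 0.75 per pair). With samples left out PRK ranged from -0.99 to -0.70, CHLP from 0.14 to 0.51, CHLM from -0.77 to 0.40, PRK over CHLM from -1.40 to 0.076 and CHLP over CHLM from -0.091 to 1.09. Leaving out numbers 5 and 6 of both groups, chosen after the data were seen, gave CHLM 0.43, CHLP over CHLM -0.31 and 0 changed probes (672 at an unadjusted p under 0.05). The 267 changed probes became 155 without normalization, where the log2 change had a median of -0.0779 over all probes, 814 with 6 against 6, 585 with random blocks, 784 with a replicate block for each sample number, 0 with a replicate block for each pair, and 17 to 273 with samples left out. They were 17, 95 and 63 without dark samples 1 and 2, 3 and 4, or 5 and 6. The cause was not tested. The other named genes and ratios gave 636 values, of which 27 gained and 15 lost the call. Gains were those of AT3G59300, HEMA3, PSBW, PSAN, LHCB1.5 and the ratios of PRK to 4 photosystem genes, and losses those of AT3G06570 and AT3G44570. Among them the sign turned for LHCB1.5 (0.14 without normalization, 0.34 with median scaling) and AT3G09080 (0.13 with median scaling, 0.0063 without numbers 5 and 6). It also turned for AT5G52810 (0.026 and 0.023) and AT1G25500 (0.24 and 0.26) without dark samples 5 and 6 and without numbers 5 and 6 of both groups, and for PRK over PSB27 (-0.12 without light-adapted sample 5, -0.56 without samples 3 and 4, up to 0.52 and 0.77 without other single samples or pairs). CHLM has no value under the filter on dim probes, and the ratios have none with random blocks or another spread estimate.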
